A study of Mus musculus with 5 samples.

Results

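Amino acid transporter genes were followed in lenses of 14-day-old (P14) mice, profiled by sequencing of poly(A) RNA. They are Slc3a2, Slc7a5, Slc7a8, Slc7a11, Slc7a1, Slc7a3, Slc38a2, Slc38a3, Slc1a4 and Slc1a5, which are 10 of the 22183 genes in the deposited table and were matched by symbol. The cKO group (2 libraries) came from Yap1 f/f;Cre or Yap1 f/+;Cre mice. In these, floxed alleles of the gene for YAP, the transcriptional effector of Hippo signalling, are deleted conditionally, which leaves an unfloxed allele in f/+ mice. Which of these genotypes each cKO pool held is not given here, so the pools may differ in it. The Ctrl group (3 libraries) came from littermates of genotype Yap1 f/f or Yap1 f/+ without abnormality, which the genotype field of the labels calls WT. Both groups thus carried floxed alleles, and no source used here names the Cre driver. Between 4 and 6 whole lenses were pooled for a library, and the cKO lenses were those with a severe phenotype, a small eye and a closed pupillary membrane. The 10 genes were chosen by their levels in cKO and Ctrl, with Slc7a8 known to be lower and Slc7a3 known to be higher in cKO, so the cKO and Ctrl values of the 10 genes are given as a description and without p-values.

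Cells take up amino acids through membrane carriers that differ in the amino acids they accept and in what they exchange or co-transport. Slc3a2 encodes the heavy chain 4F2hc (CD98), a glycoprotein that brings several light chains of the Slc7 family to the plasma membrane, where the light chain does the transport. The lens has no blood supply of its own, so amino acids reach its fibre cells from the aqueous and vitreous humours, and its high glutathione content depends on a supply of cysteine, glutamate and glycine. Several of these carriers are known targets of ATF4, the transcription factor of the amino acid response.

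The 5 libraries held 22047580 to 25762802 expected counts, and 11724 genes passed the count filter, among them all 10 transporters. Yap1 itself had 3.76 and 2.27 CPM (counts scaled to the TMM-adjusted library size) in cKO and 7.19, 6.49 and 5.49 CPM in Ctrl, without overlap (edgeR quasi-likelihood, Benjamini-Hochberg adjusted p = 0.0759). The 12 fibre markers were above 0 in every library, with sums, carried by crystallins, of 280674 and 277524 CPM in cKO and 243567 to 295985 CPM in Ctrl. Of these fibre markers, 2 fell by edgeR, Lgsn (261 and 61.8 CPM in cKO, 2332 to 3331 CPM in Ctrl, adjusted p = 0.0188) and Bfsp1 (2066 and 1267 CPM in cKO, 4102 to 4262 CPM in Ctrl, adjusted p = 0.0227). The 10 markers of the lens epithelium summed to 1361 and 2671 CPM in cKO and 2142 to 2392 CPM in Ctrl, a sum carried by Dkk3 (906 and 1884 CPM in cKO, 1274 to 1494 CPM in Ctrl). Of these 10 epithelial markers, 4 fell by edgeR. Cdh1 had 0.0408 and 0 CPM in cKO and 21.5 to 37.8 CPM in Ctrl, Gja1 1.47 and 0.745 CPM in cKO and 38.0 to 63.8 CPM in Ctrl, Npnt 11 and 11.1 CPM in cKO and 41.9 to 63.9 CPM in Ctrl, and Pax6 11 and 8.79 CPM in cKO and 34.0 to 39.8 CPM in Ctrl (edgeR adjusted p between 0.00275 and 0.00756). The cKO libraries had 0 counts of the Y-linked genes Ddx3y and Eif2s3y, against 558 to 854 counts in Ctrl, so that the sex of the mice and the genotype cannot be told apart. All 14 macrophage markers were above 0 in at least 1 cKO library, with sums of 145 and 36.8 CPM, whereas in Ctrl, where Ptprc and Itgam were at 0 in every library, the sums were 3.34, 1.61 and 2.42 CPM. Endothelial and pericyte markers (12 of 12 above 0 in at least 1 library of each group) summed to 71.2 and 79.2 CPM in cKO and 41.6 to 58.5 CPM in Ctrl. Of these, 0 were called by edgeR, and they did not all lie on the same side. Rgs5, the largest part, had 27.1 and 31.4 CPM in cKO and 12.6 to 22.6 CPM in Ctrl, whereas Tek had 2.33 and 2.23 CPM in cKO and 3.17 to 4.82 CPM in Ctrl. The 6 glial markers, of which Pax2 was at 0 in every library, had 10.2 and 1.82 CPM in cKO and 30.8 to 40.1 CPM in Ctrl, and the 7 pigment cell markers 4.86 and 2.64 CPM in cKO and 7.42 to 10.1 CPM in Ctrl. Gfap (7.68 and 0.968 CPM in cKO, 21.5 to 34.6 CPM in Ctrl) made up most of the glial sum in Ctrl. Neither list lay on 1 side. The glial Rlbp1 had 1.18 and 0.521 CPM in cKO and 0.146 to 0.422 CPM in Ctrl. The pigment gene Dct, not tested, had 1.43 and 0.149 CPM in cKO and at most 0.139 CPM in Ctrl. Retinal neuron and erythroid markers overlapped between the groups, and the 10 fibroblast and cornea markers, with Kera, Krt12, Krt14 and Krt5 at 0 in every library, reached 21.1 and 6.14 CPM in cKO and 21.5 to 23.5 CPM in Ctrl. Among the last, Pdgfra made up most of the Ctrl sum and fell (1.96 and 0 CPM in cKO, 19.7 to 20.5 CPM in Ctrl, edgeR adjusted p = 0.0470), Col1a1 rose (2.69 and 4.73 CPM in cKO, 0.0384 to 0.371 CPM in Ctrl, edgeR adjusted p = 0.0275), and Dcn, not tested, had 11.2 and 0 CPM in cKO and at most 0.0976 CPM in Ctrl. Mitochondrially encoded genes took 0.579 and 0.671% of counts in cKO and 0.271 to 0.354% in Ctrl. The part that any of these differences has in the transporter values was not tested, and in whole lenses fewer cells of a type and less RNA per cell cannot be told apart.

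Of the 10 transporters, 2 passed the threshold as higher in cKO (Slc7a1 and Slc7a3) and 2 as lower (Slc7a8 and Slc38a3), at an edgeR adjusted p under 0.05 over all genes tested. The 10 genes were chosen by these same values. Which of them pass, here and under the alternatives below, is therefore a description and no independent support. Over all genes tested, 5.76% passed as higher (675 genes) and 7.73% as lower (906 genes), 13.5% in all, and total-count scaling gave 1234 higher and 717 lower. The libraries of the groups did not overlap for 7 of the 10 transporters (4 with cKO above Ctrl and 3 with cKO below), against 51.5% of all genes tested, where cKO lay above in 22.8% and below in 28.7%. The median log2 fold change was 0.05 over the transporters and −0.06 over all genes tested. With Ctrl 1, 2 or 3 left out, 1 of the 10 passed each time, and the calls over all genes dropped to 65, 21 and 82, against 1581 with all libraries. Summed over the 10 genes, the level was 246 and 244 FPKM in cKO and 203, 203 and 254 FPKM in Ctrl, so that the total overlapped while its make-up differed.

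**Figure D1:**
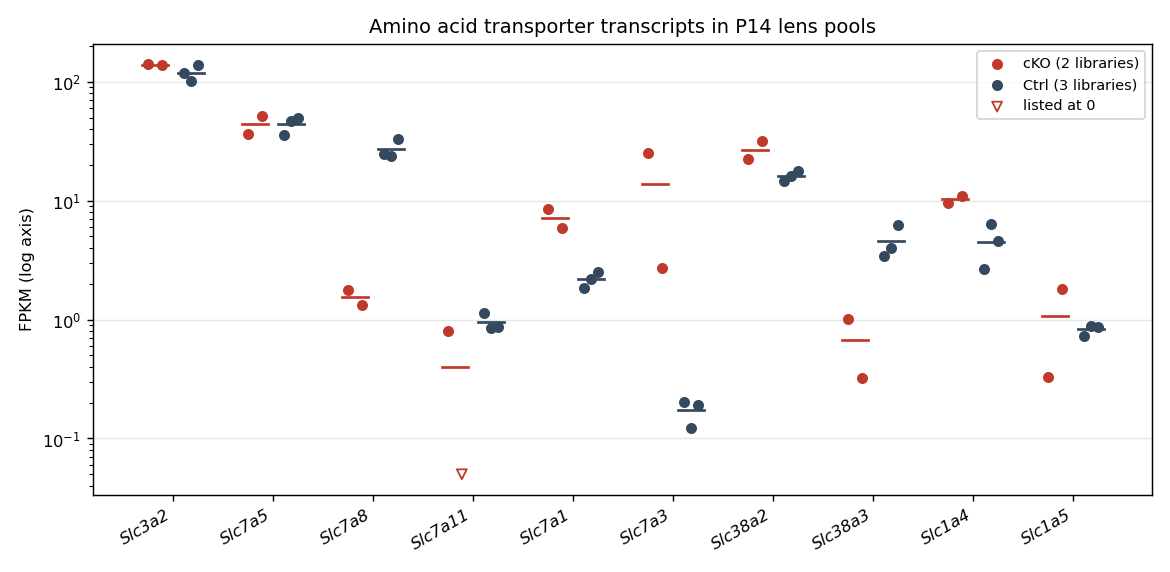
Levels of the 10 transporters in FPKM (vertical log axis) in each library, cKO to the left of Ctrl for each gene, with horizontal lines for the group means and an open triangle for the library listed at 0. Slc7a8 and Slc38a3 lie lower in both cKO libraries, Slc7a1 and Slc7a3 higher, and Slc3a2 and Slc7a5 overlap between the groups.

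The heavy chain gene Slc3a2 was the most abundant of the 10 in every library. It had 140 and 138 FPKM in cKO and 118, 102 and 138 FPKM in Ctrl, which is 56.9 and 56.5% of the summed transporter level in cKO and 58.3, 50.4 and 54.4% in Ctrl. On the CPM scale it averaged 214 ± 26.9 CPM in cKO (SD, n = 2) and 212 ± 24.4 CPM in Ctrl (SD, n = 3). The groups overlapped, and the log2 fold change was 0.01 (SE 0.17), with values below 0 when cKO 1 (−0.13) or Ctrl 2 (−0.08) was left out. A small part of its counts was fractional in 3 of the 5 libraries, so some of its reads also aligned elsewhere.

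Slc7a5 encodes LAT1, the light chain that carries large neutral amino acids such as leucine, phenylalanine and tryptophan in exchange for others. It was next in abundance in every library, with 36.7 and 51.7 FPKM in cKO and 35.6, 46.6 and 49.8 FPKM in Ctrl. Its mean level was 141 ± 17.9 CPM in cKO (SD, n = 2) and 163 ± 19.9 CPM in Ctrl (SD, n = 3), and the libraries overlapped. The log2 fold change of −0.21 (SE 0.17) became 0.01 under total-count scaling and 0.00 on both log2 FPKM scales, so no direction is given for it.

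Slc7a8 encodes LAT2, the other light chain for large neutral amino acids, which also accepts small ones. Reads of Slc7a8 numbered 177 and 122 in cKO and 2426, 2134 and 3452 in Ctrl. This corresponds to 7.23 and 4.54 CPM in cKO and 113, 104 and 132 CPM in Ctrl, so that the highest cKO library lay far below the lowest Ctrl library. The mean was 5.88 ± 1.9 CPM in cKO (SD, n = 2) and 116 ± 14.6 CPM in Ctrl (SD, n = 3), 19.8-fold lower in cKO, with a log2 fold change of −4.31 (SE 0.27). Over the 13 alternatives the log2 fold change ranged from −4.69 to −3.45, a description of the gene that was chosen for being lower. By FPKM, Slc7a8 was the 6674th most abundant gene of the table in cKO and the 982nd in Ctrl.

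The promoter of Slc7a8 is shown as that of the transporter farthest below Ctrl. RefSeq promoter windows (250 bases before to 50 bases after the transcript start, build GRCm38.p6) were at hand for 6 of the 10 transporters, in 7 windows, of which 2 are of Slc7a1. Slc7a3, Slc7a5, Slc38a3 and Slc1a5 had no window and were not searched. The 7 windows were searched on both strands for 4 short motifs. These were TGATGNAA, the core of the elements bound by ATF4 (CARE), TGACNNNGC, the core of the antioxidant response element bound by NRF2, CACGTG, an E-box, and GGAATG, the core bound by TEAD factors, the DNA-binding partners of YAP. Of all 32851 windows, 3.97% held the CARE core, 12.4% the antioxidant core, 7.15% the E-box and 14.7% the TEAD core. Of the 7 transporter windows, 2 held the CARE core (Slc7a11 and Slc1a4), 2 the antioxidant core (Slc38a2, beginning 27 bases before the start, and Slc7a1, 11 bases before it on the opposite strand), and 0 the E-box or the TEAD core. None of the 4 was found in the Slc7a8 window (chr14:54781837-54782136, minus strand), which says only that these letters are not in it. The window is given 5′ to 3′ on the gene's strand, all in lower case since no motif is marked.
Slc7a8: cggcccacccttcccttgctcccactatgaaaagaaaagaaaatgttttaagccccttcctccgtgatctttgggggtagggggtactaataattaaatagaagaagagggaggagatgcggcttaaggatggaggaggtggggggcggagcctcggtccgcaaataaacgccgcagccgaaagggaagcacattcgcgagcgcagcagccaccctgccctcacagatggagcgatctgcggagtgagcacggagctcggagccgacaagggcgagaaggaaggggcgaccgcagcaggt

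The light chains that pair with the heavy chain had another make-up in cKO. Slc7a8 took 3.28 and 1.63% of the summed level of 6 light chains (Slc7a5, Slc7a6, Slc7a7, Slc7a8, Slc7a10 and Slc7a11, in FPKM) in cKO, against 33.9, 29.0 and 34.0% in Ctrl. Slc7a5 took 67.5 and 64.1% in cKO and 49.1, 57.1 and 51.6% in Ctrl. Its own level overlapped between the groups (36.7 and 51.7 FPKM in cKO, 35.6, 46.6 and 49.8 FPKM in Ctrl). The larger share of Slc7a5 thus came with the smaller part of Slc7a8, the gene chosen for being lower, and not with a higher level. The share of Slc7a6, which encodes y+LAT2, an exchanger of cationic for neutral amino acids, was 25.5 and 34.3% in cKO and 14.5, 12.5 and 12.3% in Ctrl. Slc7a10 was at 0 in all 5 libraries, and Slc7a7 and Slc7a11 never exceeded 2.22%. Slc7a5 exceeded Slc7a8 by 20.6-fold and 39.3-fold in cKO and by 1.45-fold, 1.97-fold and 1.52-fold in Ctrl (FPKM). The sum of the light chains was 54.4 and 80.7 FPKM in cKO and 72.4, 81.6 and 96.5 FPKM in Ctrl, which overlapped, whereas in CPM it was 160 and 187 in cKO and 279, 302 and 330.3 in Ctrl, without overlap. The ratio of Slc3a2 to that sum was 2.57 and 1.71 in cKO and 1.64, 1.25 and 1.43 in Ctrl in FPKM, and 1.45 and 1.04 in cKO and 0.807, 0.607 and 0.685 in Ctrl in CPM. Both cKO libraries were above every Ctrl library on either scale, but by a narrow gap in FPKM, and no test was run. The sum holds Slc7a8, which was chosen for being lower in cKO. A higher ratio therefore follows in part from that choice and is no separate result. These are ratios of transcripts, and no protein was measured.

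**Figure D2:**
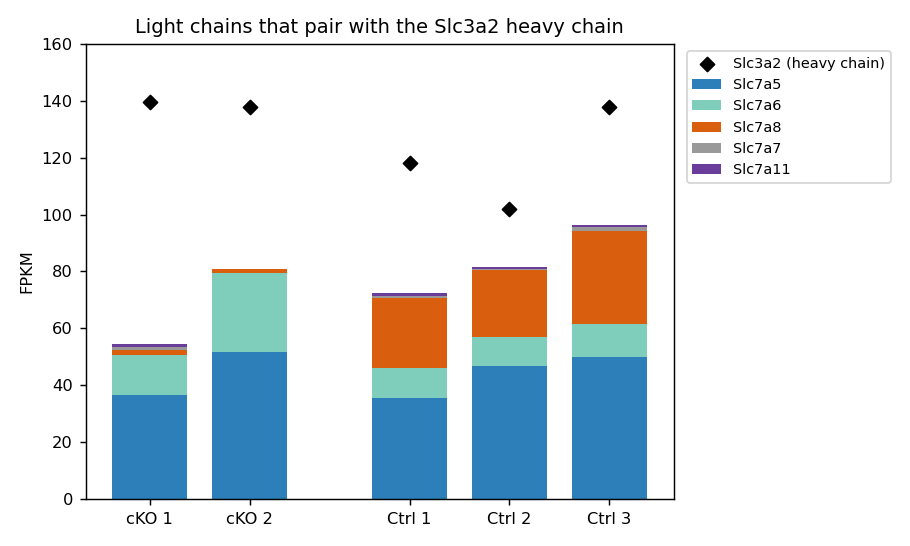
Stacked FPKM of the light chains that pair with Slc3a2 in each library, the 2 cKO libraries to the left of the 3 Ctrl libraries, with a diamond for Slc3a2 itself. The Slc7a8 segment takes 3.28 and 1.63% of the bar in cKO and 29.0 to 34.0% in Ctrl, while the Slc7a5 segment measures 36.7 and 51.7 FPKM in cKO and 35.6 to 49.8 FPKM in Ctrl.

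Slc7a11 encodes xCT, the light chain that imports cystine in exchange for glutamate and so feeds glutathione synthesis. Its expected counts were 105.03 and 0 in cKO and 161.03, 115.15 and 168 in Ctrl. It thus had 4.29 and 0 CPM in cKO and 7.47, 5.61 and 6.45 CPM in Ctrl, where a count of 0 in cKO 2 allows up to 0.112 CPM. Both cKO libraries lay below every Ctrl library, but by very different distances. The log2 fold change of −1.61 (SE 1.30) did not pass, and it was −10.28 without cKO 1, where it rests on a library at 0 and passed, and −0.60 without cKO 2, where it did not. Among all genes tested, 0.205% differed more between the 2 cKO libraries than Slc7a11 did.

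The Slc7a11 window (chr3:50443564-50443863, minus strand) is shown because it held the CARE core at 2 places, beginning 66 and 47 bases before the start, as TGATGCAA on the gene's strand and TTGCATCA on the opposite strand. The letters of both matches are in capitals.
Slc7a11: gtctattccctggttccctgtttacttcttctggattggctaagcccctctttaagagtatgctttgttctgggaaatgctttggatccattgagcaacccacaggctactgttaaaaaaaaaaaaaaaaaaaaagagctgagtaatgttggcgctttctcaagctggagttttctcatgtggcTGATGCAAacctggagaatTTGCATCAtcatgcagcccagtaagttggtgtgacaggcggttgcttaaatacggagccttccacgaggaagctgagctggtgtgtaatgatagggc

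Of the cationic carriers, Slc7a1 and Slc7a3 were higher in cKO. Slc7a1 encodes CAT1, the widely expressed carrier for arginine, lysine and ornithine, and had 464 and 304 counts in cKO and 93, 97 and 135 counts in Ctrl. Its level was 18.9 and 11.3 CPM in cKO and 4.31, 4.73 and 5.18 CPM in Ctrl, with both cKO libraries above every Ctrl library. The mean was 15.1 ± 5.39 CPM in cKO (SD, n = 2) and 4.74 ± 0.434 CPM in Ctrl (SD, n = 3), 3.19-fold higher in cKO, with a log2 fold change of 1.67 (SE 0.27).

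Slc7a3 encodes CAT3, a cationic carrier known mostly from the brain and the embryo, and its gene lies on the X chromosome. It had 1373 and 139 counts in cKO and 11, 6 and 11 counts in Ctrl. In CPM these were 56.1 and 5.17 in cKO and 0.51, 0.293 and 0.422 in Ctrl, so that cKO 1 lay 10.8-fold above cKO 2 and both lay above every Ctrl library. The mean was 30.6 ± 36 CPM in cKO (SD, n = 2) and 0.408 ± 0.109 CPM in Ctrl (SD, n = 3), 75-fold higher in cKO. The log2 fold change of 6.2 (SE 1.04) was 3.63 without cKO 1 and 7.08 without cKO 2. Between the 2 cKO libraries, 3.69% of all genes tested differed more than Slc7a3. Since no Y-linked RNA was found in the cKO pools, the number of X chromosomes and the genotype cannot be told apart for this gene.

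Together Slc7a1 and Slc7a3 summed to 33.4 and 8.60 FPKM in cKO and 2.05, 2.32 and 2.69 FPKM in Ctrl. Slc7a3 was 2.95-fold the level of Slc7a1 in cKO 1 and 0.466-fold in cKO 2, against 0.110-fold, 0.0556-fold and 0.0763-fold in Ctrl. Slc7a3 was thus the lowest of the 10 transporters in every Ctrl library, and the third by level in cKO 1 and the sixth in cKO 2. Another cationic carrier, Slc7a2 (CAT2), picked with its values in view, had 37.7 and 34.3 CPM in cKO and 52.7, 38.2 and 60.6 CPM in Ctrl (edgeR adjusted p = 0.183).

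The sodium-coupled neutral carriers Slc38a2 and Slc38a3 lay on opposite sides of Ctrl. Slc38a2 encodes SNAT2, a system A carrier of small neutral amino acids that is known to respond to amino acid shortage. It had 103 and 124 CPM in cKO and 76.3, 80.9 and 82.7 CPM in Ctrl, with both cKO libraries above every Ctrl library. The mean was 113 ± 14.7 CPM in cKO (SD, n = 2) and 80.0 ± 3.31 CPM in Ctrl (SD, n = 3), a log2 fold change of 0.50 (SE 0.14) that did not pass over all genes, but did under total-count scaling (0.73), with DESeq2, on log2 FPKM and without cKO 1 (0.62).

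Slc38a3 encodes SNAT3, a system N carrier of glutamine, histidine and asparagine. It had 61 and 18 counts in cKO and 208, 206 and 386 counts in Ctrl, which is 2.49 and 0.670 CPM in cKO and 9.65, 10.1 and 14.8 CPM in Ctrl. Both cKO libraries lay below every Ctrl library, and cKO 2 was the lower of the pair. The mean was 1.58 ± 1.29 CPM in cKO (SD, n = 2) and 11.5 ± 2.87 CPM in Ctrl (SD, n = 3), 7.30-fold lower in cKO, with a log2 fold change of −2.87 (SE 0.57) that was −4.11 without cKO 1 and −2.21 without cKO 2. On the FPKM scale, Slc38a2 thus had 22.3 and 31.5 FPKM in cKO and 14.6 to 17.9 FPKM in Ctrl, and Slc38a3 1.02 and 0.322 FPKM in cKO and 3.42 to 6.30 FPKM in Ctrl.

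Slc1a4 and Slc1a5 encode ASCT1 and ASCT2, sodium-dependent exchangers of alanine, serine, cysteine and, for ASCT2, glutamine. Slc1a4 had 37.0 and 35.7 CPM in cKO and 11.5, 26.5 and 17.5 CPM in Ctrl. The cKO libraries were alike and above every Ctrl library, while the Ctrl libraries themselves spread 2.30-fold. The mean was 36.3 ± 0.963 CPM in cKO (SD, n = 2) and 18.5 ± 7.55 CPM in Ctrl (SD, n = 3), a log2 fold change of 0.97 (SE 0.33) that did not pass by edgeR, but did with DESeq2 (0.99) and on log2(FPKM + 1) (1.08), and was 0.76 without Ctrl 1.

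The Slc1a4 window (chr11:20332664-20332963, minus strand), the other one with a CARE core, held it once, as TTGCATCA on the opposite strand beginning 4 bases before the start. The match is in capitals.
Slc1a4: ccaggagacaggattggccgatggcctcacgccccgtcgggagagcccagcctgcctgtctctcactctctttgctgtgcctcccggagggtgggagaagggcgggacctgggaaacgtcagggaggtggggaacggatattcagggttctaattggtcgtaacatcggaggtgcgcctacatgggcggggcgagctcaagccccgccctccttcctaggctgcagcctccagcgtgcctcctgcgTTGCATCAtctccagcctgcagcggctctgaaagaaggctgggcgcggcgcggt

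Slc1a5 was low in all libraries, with 22 and 114 counts in cKO and 49, 54 and 62 counts in Ctrl. It had 0.898 and 4.24 CPM in cKO and 2.27, 2.63 and 2.38 CPM in Ctrl, so that cKO 1 lay below and cKO 2 above all Ctrl libraries. Its log2 fold change was 0.09 (SE 0.64), 0.79 without cKO 1 and −1.43 without cKO 2, where it passed, and no direction is given for it.

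**Figure D3:**
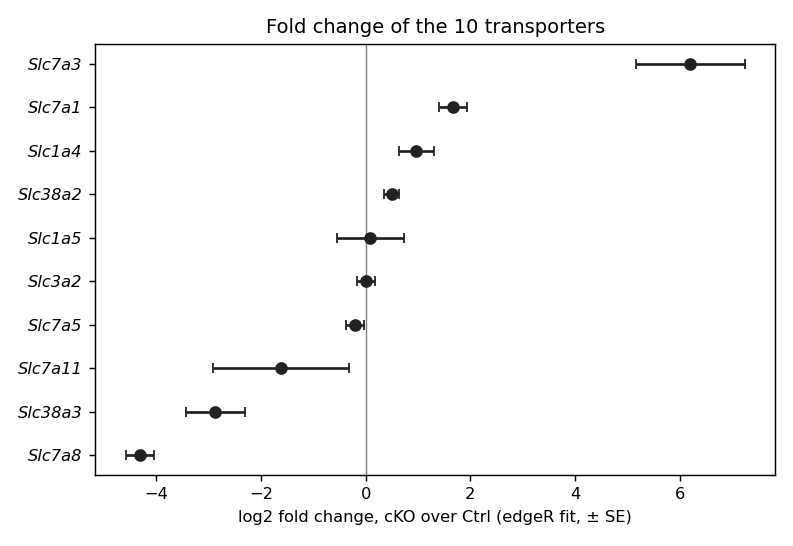
Log2 fold change of each transporter, cKO over Ctrl, from the edgeR fit over all genes tested (points, bars ± SE, horizontal axis). Values run from −4.31 for Slc7a8 to 6.2 for Slc7a3, and the widest bars belong to Slc7a11 (SE 1.30) and Slc7a3 (SE 1.04).

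By level per length, the order of the 10 genes differed between the groups. In cKO it ran Slc3a2 (mean 139 FPKM), Slc7a5 (44.2), Slc38a2 (26.9), Slc7a3 (13.9), Slc1a4 (10.2), Slc7a1 (7.16), Slc7a8 (1.55), Slc1a5 (1.07), Slc38a3 (0.671) and Slc7a11 (0.402). In Ctrl it ran Slc3a2 (119.7 FPKM), Slc7a5 (44.0), Slc7a8 (27.0), Slc38a2 (16.2), Slc38a3 (4.56), Slc1a4 (4.52), Slc7a1 (2.18), Slc7a11 (0.955), Slc1a5 (0.830) and Slc7a3 (0.172). In Ctrl the neighbours Slc38a3 and Slc1a4, and Slc7a11 and Slc1a5, overlapped across libraries, while the other neighbours did not. In cKO the libraries of Slc3a2, Slc7a5 and Slc38a2 did not overlap with each other, whereas Slc7a3 (2.73 to 25 FPKM) overlapped with Slc38a2, Slc1a4 and Slc7a1. The lowest 4 in cKO overlapped in neighbouring pairs.

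Among 46 other carriers of amino acids at the plasma or lysosomal membrane, 8 had no count in any library and 21 passed the count filter. Of these 21, 2 rose and 3 fell in cKO by edgeR (5 in all, 23.8%, against 13.5% of all genes tested), and their median log2 fold change was −0.07. The sodium-dependent taurine carrier gene Slc6a6 had 100.1 and 183 CPM in cKO and 33.3, 38.8 and 27.9 CPM in Ctrl, and rose by log2 2.09 (SE 0.28, edgeR adjusted p = 0.0134). Its mean level was 49.0 FPKM in cKO, the highest of these carriers there, and 10.6 FPKM in Ctrl, where Slc7a4, Slc38a10 and Slc7a6 were higher. Ctns, the exporter of cystine from lysosomes, had 7.10 and 6.07 CPM in cKO and 2.97, 3.46 and 2.84 CPM in Ctrl (log2 fold change 1.09, SE 0.26, edgeR adjusted p = 0.0450).

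The falls were in carriers of neutral and acidic amino acids. Slc38a4 (SNAT4, a system A carrier) had 13.8 and 10.3 CPM in cKO and 40.4, 35.5 and 33.2 CPM in Ctrl (log2 fold change −1.60, SE 0.20, edgeR adjusted p = 0.0108). Slc6a15, a sodium-dependent carrier of branched-chain amino acids and proline, had 3.02 and 0.335 CPM in cKO and 16.5, 13.3 and 19.3 CPM in Ctrl (log2 fold change −3.29, SE 0.79, edgeR adjusted p = 0.0440). Its log2 fold change was −5.60 without cKO 1 and −2.43 without cKO 2. Slc1a1 (EAAT3, a carrier of glutamate and cysteine) was at 0 in both cKO libraries and had 20, 14 and 7 counts in Ctrl, at least 5.35-fold lower in cKO against a floor of 3 counts per library (edgeR adjusted p = 0.0472). That call was lost with no filter and on both log2 FPKM scales, and the gene did not pass the stricter filter. Slc7a6, the light chain described above, had 18.4 and 28.7 CPM in cKO and 17.3, 15.8 and 16.6 CPM in Ctrl and did not pass (0.51, SE 0.22, edgeR adjusted p = 0.168), though it did without cKO 1 (0.78), and its log2 fold change was 0.15 without cKO 2. With Ctrl 1, 2 or 3 left out, 0 of these carriers passed by edgeR, against 6 at an unadjusted p under 0.05 each time, and the calls numbered 13 without cKO 1 and 9 without cKO 2.

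**Figure D4:**
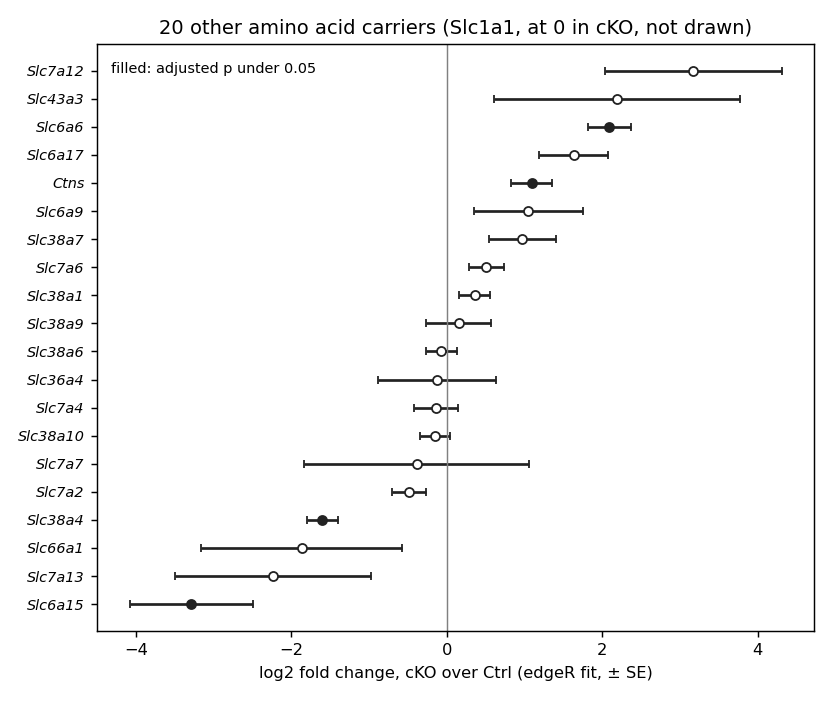
Log2 fold change, cKO over Ctrl, of 20 other amino acid carriers that passed the count filter (points, bars ± SE; filled points had an edgeR adjusted p under 0.05). Slc6a6 and Ctns lie to the right of 0 and Slc38a4 and Slc6a15 to the left among the filled points, and Slc1a1, at 0 in cKO, is not drawn.

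The amino acid response is a programme run by ATF4 when amino acids are short, and its genes are shared with the wider integrated stress response. Amino acids were not measured, and what set off the changes below was not tested. Both cKO libraries lay above every Ctrl library for 15 of the 25 genes of this list and below for 3, against 22.8 and 28.7% of all genes tested. Of the 25 genes, all tested, 8 rose and 1 fell by edgeR (36.0%, against 13.5% of all genes tested), with a median log2 fold change of 0.98, against −0.06 over all genes tested. Integrated-stress genes were already known from these data to be higher, so the count is no independent support. Asns, which encodes asparagine synthetase, had 131 and 59.5 CPM in cKO and 14.3, 14.8 and 14 CPM in Ctrl (log2 fold change 2.73, SE 0.32, edgeR adjusted p = 0.00957; 2.04 without cKO 1). Chac1, whose product degrades glutathione, had 80.9 and 16.5 CPM in cKO and 0, 0.0976 and 0.154 CPM in Ctrl (log2 fold change 9.03, SE 0.98, edgeR adjusted p = 0.00756; 7.46 without cKO 1). Trib3, a pseudokinase gene, had 90.0 and 3.54 CPM in cKO and at most 0.614 CPM in Ctrl (6.73, SE 1.38, edgeR adjusted p = 0.0307; 3.01 without cKO 1). The transcription factor genes Ddit3 and Atf5 rose by 3.56 (SE 0.78, edgeR adjusted p = 0.0358; 1.5 without cKO 1) and by 2.56 (SE 0.40, edgeR adjusted p = 0.0178).

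The other 16 genes of the list were not called. Both cKO libraries were below every Ctrl library for Ppp1r15a and for 2 genes that did not pass and were picked with their values in view. These were Eif2ak4, which encodes the amino acid sensor kinase GCN2 (1.92 and 0.819 CPM in cKO, 3.27 to 4.84 CPM in Ctrl, edgeR adjusted p = 0.0850), and Phgdh, a serine synthesis gene (97.8 and 67.8 CPM in cKO, 101 to 116 CPM in Ctrl, edgeR adjusted p = 0.209). Ppp1r15a, whose product recruits the phosphatase of eIF2α, fell by 3.52 (log2, SE 0.52, edgeR adjusted p = 0.0150), with 77.4 and 23.9 CPM in cKO and 554, 598 and 594 CPM in Ctrl, and its log2 fold change was −4.62 without cKO 1 and −2.91 without cKO 2. Nupr1, the most abundant of the list, had 3245 and 1716 CPM in cKO and 1805, 1649 and 1743 CPM in Ctrl (edgeR adjusted p = 0.240). Atf4 mRNA, picked with its values in view, had 141 and 40.4 CPM in cKO and 61.4, 62.3 and 53.7 CPM in Ctrl (edgeR adjusted p = 0.410), so that cKO 1 lay above and cKO 2 below all Ctrl libraries. With Ctrl 1, 2 or 3 left out, 0 genes of the list passed by edgeR (12, 13 and 11 at an unadjusted p under 0.05), and 13 passed without cKO 1 and 22 without cKO 2.

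The 2 cKO libraries differed in the genes listed under the amino acid response. In cKO 1, 24 of the 25 response genes were above their level in cKO 2, a share of 96.0%, against 51.1% of all genes tested. The median log2 ratio of cKO 1 to cKO 2 was 1.11 over the response genes and 0.02 over all genes tested. Of the transporters, 7 of 10 were higher in cKO 1 by CPM, with a median log2 ratio of 0.46. Slc7a3 (10.8-fold), Slc38a3 (3.72-fold), Slc7a1 (1.67-fold), Slc7a8 (1.59-fold) and Slc3a2 (1.20-fold) were higher in cKO 1, where Slc7a11 was present and in cKO 2 at 0, and Slc1a4 was alike (1.04-fold). Slc1a5 (4.73-fold), Slc7a5 (1.20-fold) and Slc38a2 (1.20-fold) were higher in cKO 2. The smaller of these CPM ratios depend on the scaling. In FPKM, Slc3a2 had 139.7 in cKO 1 and 138 in cKO 2, and Slc1a4 was lower in cKO 1 (9.57) than in cKO 2 (10.9). With 1 library on each side the ratios have no replicate check.

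**Figure D5:**
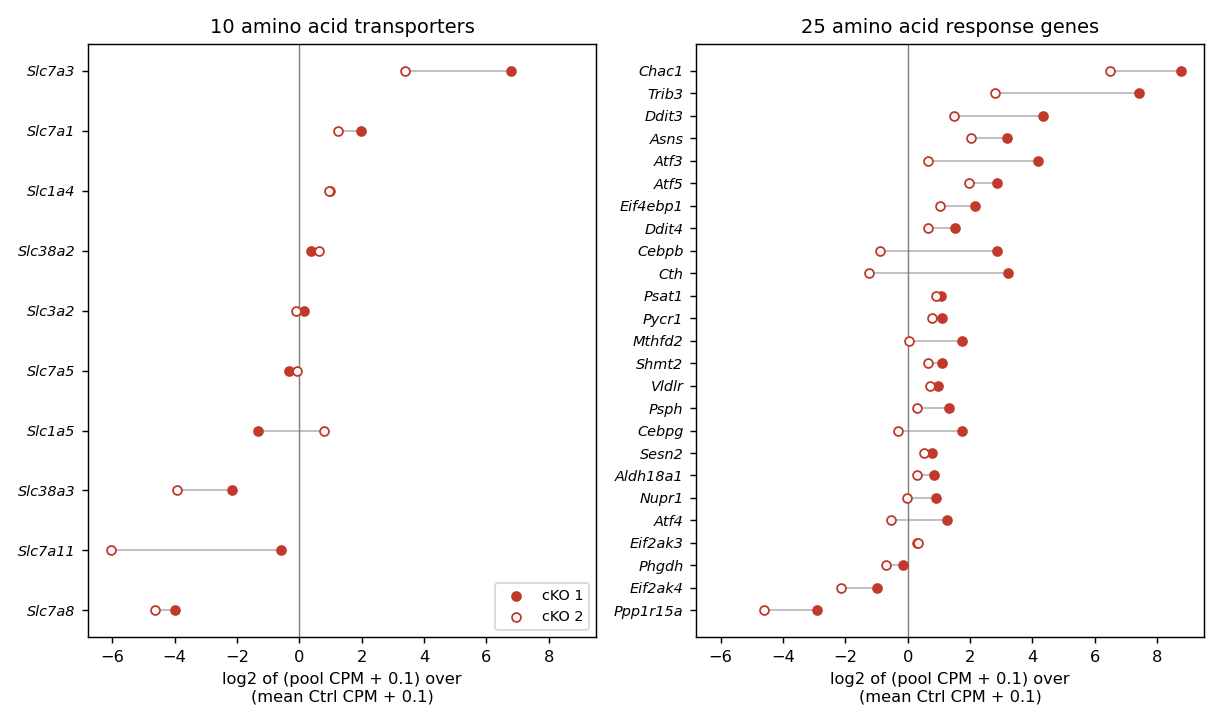
Log2 ratio of each cKO library to the Ctrl mean (CPM + 0.1, horizontal axis) for the 10 transporters and the 25 amino acid response genes, with filled points for cKO 1 and open points for cKO 2. The points of cKO 1 lie to the right of those of cKO 2 for 24 of the 25 response genes and for 7 of the 10 transporters.

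Genes through which amino acids act on the growth kinase mTORC1 at the lysosome moved both ways. Of 33 tested genes of this list, 6 rose and 4 fell by edgeR (30.3%, against 13.5% of all genes tested), with a median log2 fold change of −0.12, and total-count scaling gave 9 and 2. Mtor itself, the kinase gene, fell by 1.73 (SE 0.26, edgeR adjusted p = 0.0161), with 5.43 and 7.37 CPM in cKO and 17.1, 20.8 and 25.9 CPM in Ctrl. The leucine-sensor family member Sesn1 fell by 1.41 (SE 0.20, edgeR adjusted p = 0.0147), whereas its relative Sesn3 rose by 1.06 (SE 0.22, edgeR adjusted p = 0.0319). Rragd, a Rag GTPase gene, rose by 1.10 (SE 0.24, edgeR adjusted p = 0.0347) and Fnip1, whose product binds folliculin, by 1.48 (SE 0.36, edgeR adjusted p = 0.0450). Mios, of the GATOR2 complex, fell by 1.16 (SE 0.28, edgeR adjusted p = 0.0436). Of the 13 alternatives, 8 lost the call of Mios and 7 that of Fnip1, against 4 for Mtor. The smallest log2 fold changes among them were −0.53 for Mios and 0.42 for Fnip1. By mean FPKM over the 5 libraries, the most abundant genes of the list were Lamtor2, a Ragulator subunit (log2 fold change 0.55, SE 0.14, edgeR adjusted p = 0.0494), and Sec13 (0.08, SE 0.13, edgeR adjusted p = 0.695). Rheb, picked with its values in view, encodes the GTPase that activates mTORC1. Its mean was 54.9 FPKM in cKO and 25.2 FPKM in Ctrl, and it rose by 0.93 (SE 0.20, edgeR adjusted p = 0.0356). Rheb was above Sec13 in cKO 1 (62.4 against 49.8 FPKM) but below it in cKO 2 (47.4 against 55.0 FPKM) and in every Ctrl library. With Ctrl 1, 2 or 3 left out, 0 passed by edgeR (15, 13 and 12 at an unadjusted p under 0.05), and 16 passed without cKO 1 and 17 without cKO 2.

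Enzymes that use the carried amino acids, glutathione genes and genes of the antioxidant response, together called the enzymes below, passed at a share near that of all genes. The antioxidant response genes Nfe2l2, Keap1, Hmox1, Nqo1, Txnrd1 and Srxn1 were tested and not called. Both cKO libraries still lay below every Ctrl library for Hmox1, Keap1 and Txnrd1 and above for Nqo1, while Nfe2l2 and Srxn1 overlapped. Of all genes tested, 51.5% did not overlap. Of 29 tested genes, 3 rose and 1 fell by edgeR (13.8%, against 13.5% of all genes), with a median log2 fold change of 0.24. Gls2, a glutaminase gene, rose by 1.79 (SE 0.31, edgeR adjusted p = 0.0217), with 5.43 and 6.03 CPM in cKO and 1.48, 1.51 and 1.96 CPM in Ctrl. Gclm, the modifier subunit of the first enzyme of glutathione synthesis, rose by 0.61 (SE 0.15, edgeR adjusted p = 0.0487), and Gpx4, a glutathione-dependent peroxidase gene, by 0.72 (SE 0.15, edgeR adjusted p = 0.0314). Ggt1, which breaks down extracellular glutathione, fell by 2.10 (SE 0.30, edgeR adjusted p = 0.0145), with 2.04 and 2.79 CPM in cKO and 9.18, 9.08 and 12.9 CPM in Ctrl. Of the most abundant genes, Hmox1 had 462 and 103 CPM in cKO and 1361, 1385 and 1573 CPM in Ctrl (edgeR adjusted p = 0.0526), and Gss, which completes glutathione, 592 and 488 CPM in cKO and 341, 387 and 383 CPM in Ctrl (edgeR adjusted p = 0.0636). Also picked with its values in view, Arg1, whose product splits the arginine that the cationic carriers import, had 1247 and 61 counts in cKO and 0 in every Ctrl library (edgeR adjusted p = 0.0516). Its cKO mean was at least 199-fold above Ctrl, taken at a floor of 3 counts per library. That mean was carried by cKO 1 (50.9 CPM, against 2.27 CPM in cKO 2), so the bound does not hold for cKO 2 alone. Arg1 is also known as a macrophage gene. With Ctrl 1, 2 or 3 left out, 0 of this list passed by edgeR (11, 9 and 13 at an unadjusted p under 0.05), and 10 passed without cKO 1 and 15 without cKO 2.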

How the data were processed

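Poly(A) RNA of 5 lens pools (cKO, 2; Ctrl, 3) was, per the labels' protocols, read as pairs of 150 bases. In 1 table, the authors deposited expected counts of 22183 genes, with no scaling between libraries (6.03 to 7.47% of values in a library were not whole, tolerance 0.001), and FPKM, which the file headers name and which correct for length and depth. RSEM, Trimmomatic and the build GRCm39 are named in the submitters' processing notes. No source used here gives the aligner or whether counting was stranded, so reads of overlapping antisense genes may be mixed.

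Counts were rounded, filtered (filterByExpr, minimum count 10, minimum total 15) and TMM-scaled. The quasi-likelihood F test of edgeR 4.0.16 in R 4.3.3 (3 residual and 3.26 prior degrees of freedom), first tried on simulated data, set cKO against Ctrl. Benjamini-Hochberg adjustment ran over the 11724 genes with a threshold of 0.05, and SEs were taken from the F statistic. Library depth was 22047580 to 25762802 counts. A library at 0 could hold up to 3 counts (0.112 to 0.146 CPM), which covers counting error only. Since no label ties a pool to a separate litter, p-values measure the spread between pools. A symbol shared by several identifiers (20 symbols) stayed with the one of highest total. Alternatives were DESeq2 1.42.0, limma 3.58.1 on log2(FPKM + 1) and log2(FPKM + 0.1), other scalings and filters, each library left out, a replicate block, and CPM in place of FPKM for the light chains.

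The transporters and all gene lists were chosen with earlier results of these data known. Named from each list are the 2 most abundant tested genes and the called ones (the 6 with the largest change, or all among carriers); other genes are marked. Lars1 and Xist were not matched and are not analysed here. Promoters are RefSeq windows on GRCm38.p6, matched by symbol.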

Additional observations from a re-analysis of the deposited data

How the results depend on the processing

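Numbers of genes called are given as higher and lower in cKO. Over all genes, total-count scaling gave 1234 higher, DESeq2 gave 1209 and 1521, and log2 FPKM gave 1380 higher (pseudocount 1) and 1402 higher (0.1). These scalings moved the median of all genes up by 0.218 (total counts), 0.137 (FPKM + 1) and 0.163 (FPKM + 0.1). Of the transporters, DESeq2 called 4 and 2, and log2(FPKM + 1) called 4 and 2. Total-count scaling called 3 and 2, and log2(FPKM + 0.1) 3 and 2. Of the other carriers, 1 and 2 were called with no filter, and log2(FPKM + 0.1) gave 4 and 2. Of the response genes, DESeq2 called 11 and 2, and total-count scaling 12 and 1. Of the mTORC1 genes, 9 and 2 were called under total-count scaling, 7 and 2 on either log2 FPKM scale, and 4 and 3 with no filter. Of the enzymes, 7 and 2 were called under total-count scaling, 3 and 2 with no filter, 7 and 4 with DESeq2, and 8 and 3 on either log2 FPKM scale. Light chain shares taken from CPM were 3.47% in cKO and 38.3% in Ctrl for Slc7a8, and 81.2% in cKO and 53.7% in Ctrl for Slc7a5.

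With each library left out in turn, the calls ranged from 6 to 2197 higher and 15 to 2963 lower over all genes, 0 to 3 and 1 to 3 among the transporters, 0 to 6 and 0 to 7 among the other carriers, 0 to 20 and 0 to 4 in the response, 0 to 9 and 0 to 9 in the mTORC1 list, and 0 to 11 and 0 to 5 among the enzymes. The lowest counts came without a Ctrl library, and the highest without a cKO library, where the lone cKO pool is assumed to vary like the Ctrl pools. The sign turned for Slc7a5 under total counts (0.01) and on log2 FPKM (0.00 with either pseudocount), for Slc3a2 without cKO 1 (−0.13, the lowest with a library left out, where the highest was 0.14) and without Ctrl 2 (−0.08), for Slc1a5 on log2(FPKM + 0.1) (−0.03), without cKO 2 (−1.43, against up to 0.79) and with the replicate block (−0.29), and for Nupr1 without cKO 1 (−0.03, against up to 0.91). The cause was not tested.

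The labels number cKO and Ctrl pools alike without saying that a number marks a pair, and the deviations of equally numbered pools from their group means correlated at 0.111 (number 1) and −0.083 (number 2) over 11724 genes. The deviations of the 2 cKO pools mirror each other, so these values are not separate checks of a pairing. The unlike-numbered pools cKO 2 and Ctrl 3 correlated at 0.153. With the replicate block, edgeR called 72 and 110 of all genes, 1 and 1 of the transporters, 1 and 1 of the other carriers, 3 and 1 in the response, 0 and 0 in the mTORC1 list (6 and 5 at an unadjusted p under 0.05) and 1 and 0 of the enzymes (4 and 5 at an unadjusted p under 0.05). Precision is limited by the 2 cKO pools, which differed from each other, and genes such as Slc7a11 and Slc1a5 rest on few counts.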
